A study of Arabidopsis thaliana with 12 samples.

Results

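Of the 33331 genes counted, 9 were plant defensin genes of the PDF1 and PDF2 groups, chosen by their gene identifiers alone. They were PDF1.2A (AT5G44420), PDF1.2C (AT5G44430), PDF1.3 (AT2G26010), PDF1.2B (AT2G26020), LCR67, also known as PDF1.1 (AT1G75830), PDF1.4 (AT1G19610), PDF2.2 (AT2G02100), PDF2.3 (AT2G02130) and PDF2.1 (AT2G02120). Their transcripts were followed by 3′ RNA-seq, which reads transcript ends, in shoots of Arabidopsis thaliana plants aged 2 weeks. Plants of 4 genotypes had grown at 22 °C, 50% humidity and 100 µmol m-2 s-1 of light without a dark period, and each genotype gave 3 libraries. Col-0 was the wild type. The mutant aig2abc is named for AIG2A, AIG2B and AIG2C, the mutant pad4 for PAD4, a partner of EDS1 in salicylic acid signalling, and aig2abc pad4 for all of these genes. No treatment or pathogen is named for any group, the labels give no allele, and they do not say whether libraries of a group came from separate plants, so a p-value here reflects the spread among libraries and no more. The design sets the AIG2 mutations beside Col-0, and again in plants with the pad4 mutation.

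Plant defensins are small secreted proteins with a fold held together by disulphide bridges, and several inhibit the growth of fungi. In Arabidopsis leaves PDF1.2A is the usual marker of the defence branch driven jointly by jasmonate and ethylene, in which the ERF transcription factors ORA59 and ERF1 act through the GCC box, a short promoter element. Salicylic acid signalling is known to oppose this branch, while the PDF2 genes are known mainly for transcripts that are present without elicitation.

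The promoters of the PDF1.2 group are shown because the GCC box, the element through which ORA59 and ERF1 act, lies in a stretch that the close copies share. All coordinates are those of the RefSeq assembly TAIR10.1, since the count table holds none and the submitters' processing notes name the build TAIR10. PDF1.2A lies on the minus strand at chr5:17906968-17907638 beside PDF1.2C on the same strand at chr5:17908850-17909507. PDF1.3 and PDF1.2B are neighbours on the plus strand of chromosome 2, at chr2:11087280-11088001 and chr2:11089123-11089805. LCR67 lies on the plus strand at chr1:28472357-28472898. The stretch in front of each gene is written 5′ to 3′ on the gene's strand, and capitals mark the 6 bases that face the GCC box core of PDF1.2A.
PDF1.2A, chr5:17907825-17907890, minus strand: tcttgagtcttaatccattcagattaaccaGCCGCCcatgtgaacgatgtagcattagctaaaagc
PDF1.2B, chr2:11088950-11089019, plus strand: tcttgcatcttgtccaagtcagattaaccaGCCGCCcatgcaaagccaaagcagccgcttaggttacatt
PDF1.2C, chr5:17909768-17909841, minus strand: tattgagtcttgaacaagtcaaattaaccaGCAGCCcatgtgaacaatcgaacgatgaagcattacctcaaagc
PDF1.3, chr2:11087065-11087139, plus strand: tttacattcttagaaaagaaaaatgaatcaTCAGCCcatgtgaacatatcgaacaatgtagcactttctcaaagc
LCR67, chr1:28472032-28472098, plus strand: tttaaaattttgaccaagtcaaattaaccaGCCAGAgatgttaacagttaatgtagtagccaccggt

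In the 500 bases before the annotated start, the core GCCGCC, read on both strands, was present in 2 of the 9 genes, PDF1.2A and PDF1.2B, and in 4.12% of 27443 protein-coding promoters. It lay 222 to 217 bases before the start of PDF1.2A and 143 to 138 bases before that of PDF1.2B. With positions counted from 1 at the first base of the core, PDF1.2C differed from PDF1.2A by C3A, PDF1.3 by G1T and C3A, and LCR67 by G4A, C5G and C6A. Over the bases that could be aligned, the stretch of PDF1.2C was 85.9% identical to that of PDF1.2A over 64 bases, and that of LCR67 78.7% over 47 bases. The G-box CACGTG was in 0 of 9 windows and 9.35% of all, the W-box core TTGAC in 7 of 9 and 67.4%, the TGACG element in 4 of 9 and 32%, and TATAAA in 6 of 9 and 67.3%. TTGAC and TGACG can overlap as TTGACG. Absence of a motif says only that its letters are not in this window.

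The coding sequences of PDF1.2A, PDF1.2C, PDF1.2B and PDF1.3 were 91.4 to 94.7% identical to each other, and LCR67 was 87.2 to 90.5% identical to these 4. PDF1.4 was less alike, at 63.4 to 65.6%, and the 3 PDF2 genes were 85.4 to 88% identical among themselves. The tail that a 3′ read samples was less conserved than the coding part, and the last 300 transcript bases of the 4 close copies were 81.2 to 86.3% identical. Of the runs of 50 bases in those 300, none recurred in another annotated gene except in PDF1.2B, where 1.99% recurred in PDF1.3. No run of 75 bases recurred for any of the 9. Neither the read length nor the treatment of reads with several matches is stated in the sources at hand, so the split among the 4 copies carries that limit, and their sum is given as well.

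Library totals ran from 584342 counts in aig2abc replicate 2 to 10697612, and the aig2abc libraries were the 3 smallest, at up to 3005199. Each was also high, at 85.0 to 108, on the axis that held 52.5% of the variance within the other 3 groups, where those libraries ran from -59.8 to 63.6, with aig2abc pad4 replicate 3 the highest of them. The part of depth and of this axis in the results was not tested beyond the values given beside them. No single gene outside the defensin genes has a value with this axis in the fit. AIG2C had 0 to 4 counts in each aig2abc library and 2 to 5 in each aig2abc pad4 library, against 238 to 560 in Col-0 and 346 to 375 in pad4. AIG2A and AIG2B were not absent in either mutant, and the lesions are not given, so their tags check nothing. The AIG2 mutants differed there: AIG2B averaged 769 CPM in Col-0, 709 in aig2abc, 989 in pad4 and 188 in aig2abc pad4, where it was 5.28-fold below pad4 (edgeR adjusted p = 0.0032) and 3.77-fold below aig2abc (edgeR adjusted p = 0.00775). AIG2A averaged 66.7 CPM in Col-0, 90.3 in aig2abc, 49.2 in pad4 and 215 in aig2abc pad4, 2.36-fold above aig2abc (edgeR adjusted p = 0.00269). The part of this in the comparisons with aig2abc pad4, the interaction included, was not tested. PAD4 was at 2.68 to 3.45 CPM in pad4 and 5.10 to 8.14 in aig2abc pad4, against 17.1 to 35.2 in Col-0. CPM are counts scaled to a common library total after TMM normalization. All 5 leaf markers were counted in every group, at 26273 to 52557 CPM in sum per library, whereas 9 root markers summed to 14.1 to 39.4 CPM, 5 seed markers to 0 to 0.230 CPM and 5 flower markers to 1.3 to 9.65 CPM. The flower sum was higher in aig2abc, at 5.25 to 9.65 CPM, than in the other groups, where it reached at most 3.32 CPM. Of the 5 leaf markers, 2 were called lower in aig2abc against Col-0 and 0 higher, where 19.5% and 18% of all tested genes were called. RBCS3B was 3.31-fold lower (edgeR adjusted p = 0.000197) and GAPA 2.89-fold lower (edgeR adjusted p = 0.00893).

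PDF1.2A, PDF1.2C, PDF1.3, PDF1.2B and LCR67 were far higher wherever the AIG2 genes were mutated, and highest in aig2abc pad4. PDF1.2A, the marker gene, was at 9.88, 12 and 5.09 CPM in the Col-0 libraries, 760, 591 and 907 CPM in aig2abc, 7.07, 8.96 and 4.45 CPM in pad4, and 4375, 3899 and 2731 CPM in aig2abc pad4. Col-0 and pad4 overlapped, all aig2abc libraries lay above both, and all aig2abc pad4 libraries lay above aig2abc. PDF1.2C, its neighbour on chromosome 5, was at 5.88, 6.58 and 2.2 CPM in Col-0, 620, 486 and 670 CPM in aig2abc, 4.30, 4.02 and 2.93 CPM in pad4, and 4264, 3565 and 1766 CPM in aig2abc pad4. Its libraries fell in the same order of groups, again with Col-0 and pad4 overlapping. PDF1.3 was at 1.78, 1.52 and 1.1 CPM in Col-0, 72.7, 67.5 and 111 CPM in aig2abc, 0.956, 1.03 and 0.234 CPM in pad4, and 1730, 1220 and 370.2 CPM in aig2abc pad4. No 2 groups overlapped for PDF1.3, although its Col-0 and pad4 levels lay close together. In bulk shoots, a change in the number of cells of a type and a change in RNA per cell cannot be told apart.

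**Figure D1:**
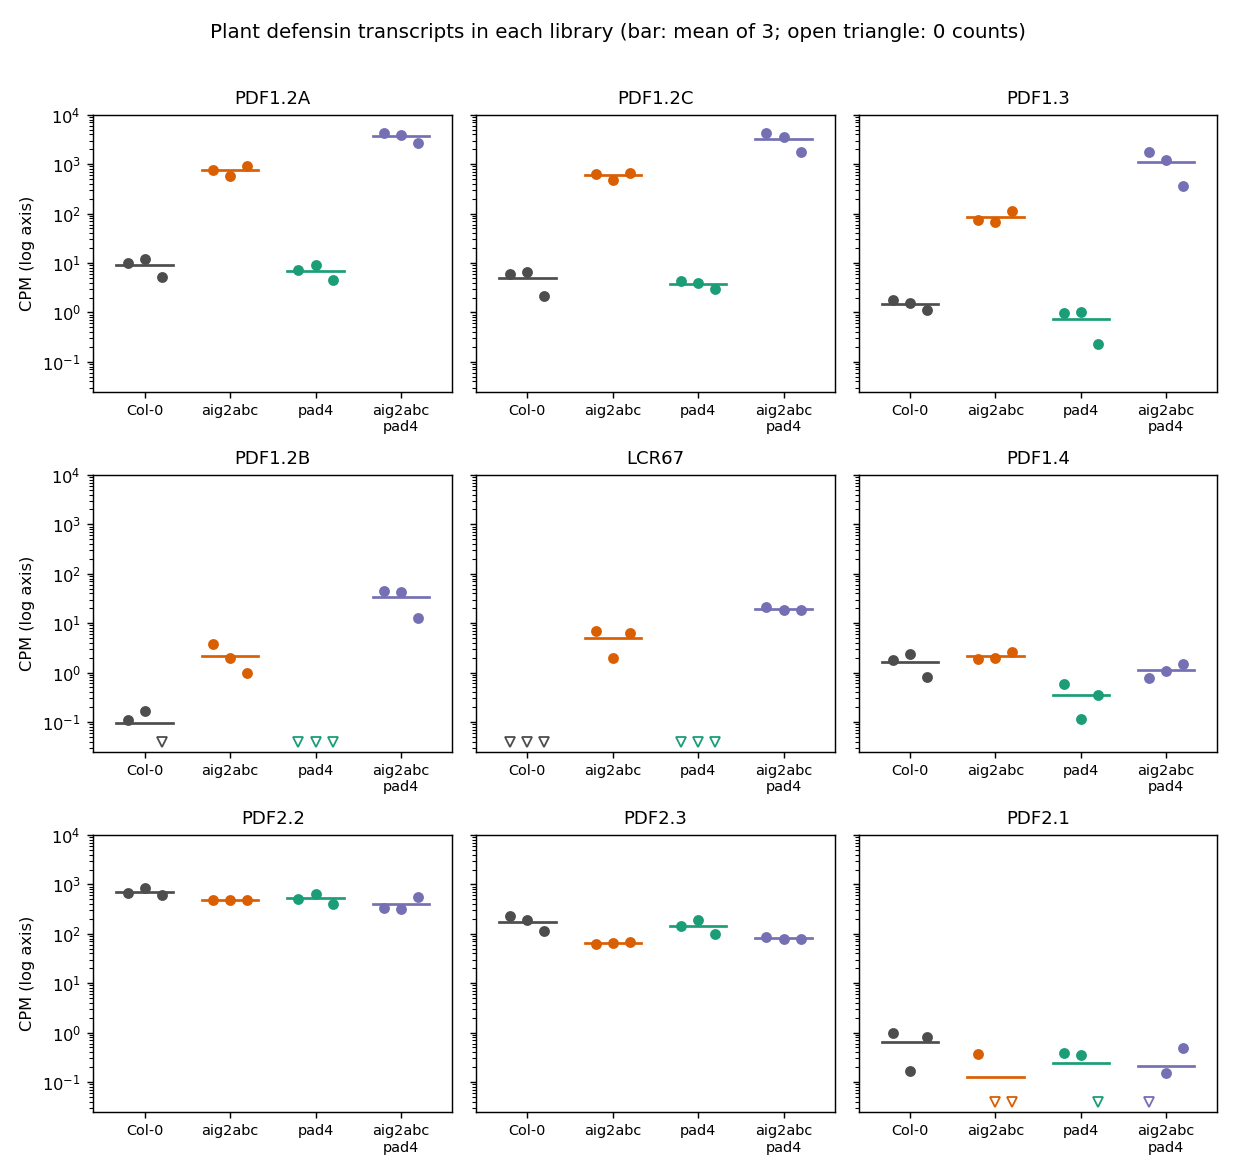
CPM of the 9 defensin genes on a log axis in the 12 libraries, by genotype, with a bar at the mean of 3 libraries and an open triangle for a library with 0 counts. PDF1.2A ran from 4.45 CPM in a pad4 library to 4375 CPM in an aig2abc pad4 library, while PDF2.2 stayed between 324 and 832 CPM.

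PDF1.2B and LCR67 were the scarce members of the group and were nearly silent without the AIG2 mutations. PDF1.2B had 1, 1 and 0 counts in Col-0, 10, 1 and 3 in aig2abc, 0 in each pad4 library, and 465, 288 and 78 in aig2abc pad4, the last equal to 44.7, 43.4 and 12.8 CPM. LCR67 had 0 counts in every Col-0 and pad4 library, 19, 1 and 19 counts in aig2abc, and 217, 120 and 110 in aig2abc pad4. For LCR67 these were 7.04, 1.93 and 6.24 CPM in aig2abc and 20.9, 18.1 and 18.1 CPM in aig2abc pad4. All aig2abc pad4 libraries lay above all aig2abc libraries for both genes. A floor of 3 counts over the group stands for 0.120 CPM in Col-0, 0.108 CPM in pad4, 0.479 CPM in aig2abc and 0.130 CPM in aig2abc pad4. This floor and the intervals given with counts cover counting error only.

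Of the 8 defensin genes that passed the filter on low counts, PDF1.3, PDF1.2B, LCR67 and PDF1.4 reached its level of 1.37 CPM in too few Col-0 and pad4 libraries and passed only through the AIG2 mutants. The filter favours a rise in these 4, so nothing is read from counts that include them. PDF1.2A, PDF1.2C, PDF2.2 and PDF2.3 passed without the AIG2 mutants. In aig2abc against Col-0, PDF1.2A and PDF1.2C of these 4 rose and PDF2.3 fell, where 18% of all 15082 tested genes rose, 19.5% fell and 37.5% were called in all (edgeR quasi-likelihood test, Benjamini-Hochberg adjusted p under 0.05). PDF1.3, PDF1.2B and LCR67 were also called higher. PDF1.2A rose by 6.40 ± 0.41 on the log2 scale (SE), or 84.6-fold, with an edgeR adjusted p of 8.26e-08. PDF1.2C rose by 6.94 ± 0.46 (edgeR adjusted p = 1.17e-07) and PDF1.3 by 5.85 ± 0.55 (edgeR adjusted p = 2.95e-06). PDF1.2B, with 14 counts in aig2abc against 2 in Col-0, rose 27.9-fold in pooled CPM with an exact 95% interval of 6.41 to 253, and its edgeR adjusted p was 0.00438, or 0.0824 without aig2abc replicate 1. Its log2 change of 4.52 was 3.52 without that library and 3.88 without Col-0 replicate 3. LCR67 was at least 51.8-fold higher. With the axis score as a covariate, the change of PDF1.2A was 7.12 on the log2 scale, that of PDF1.2C 8.19 and that of PDF1.3 8.08.

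In aig2abc pad4 against pad4, PDF1.2A and PDF1.2C again rose, where 3.34% of tested genes were called higher, 0.663% lower and 4% in all, and PDF1.3, PDF1.2B and LCR67 were called higher too. Neither PDF2.2 nor PDF2.3 was called lower by edgeR, DESeq2 or limma-voom, although PDF2.3 was lower at an unadjusted p under 0.05. PDF1.2A rose by 9.06 ± 0.45 on the log2 scale, or 536-fold (edgeR adjusted p = 2.08e-09). PDF1.2C rose by 9.73 ± 0.51 (edgeR adjusted p = 2.08e-09) and PDF1.3 by 10.49 ± 0.65, or 1437-fold (edgeR adjusted p = 1.48e-08). PDF1.2B was at least 332-fold higher and LCR67 at least 179-fold higher, since neither had a count in pad4. Without aig2abc pad4 replicate 3, the library of that group with the lowest PDF1 levels, the sum of the 4 close copies rose by 9.72 on the log2 scale in place of 9.46.

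**Figure D2:**
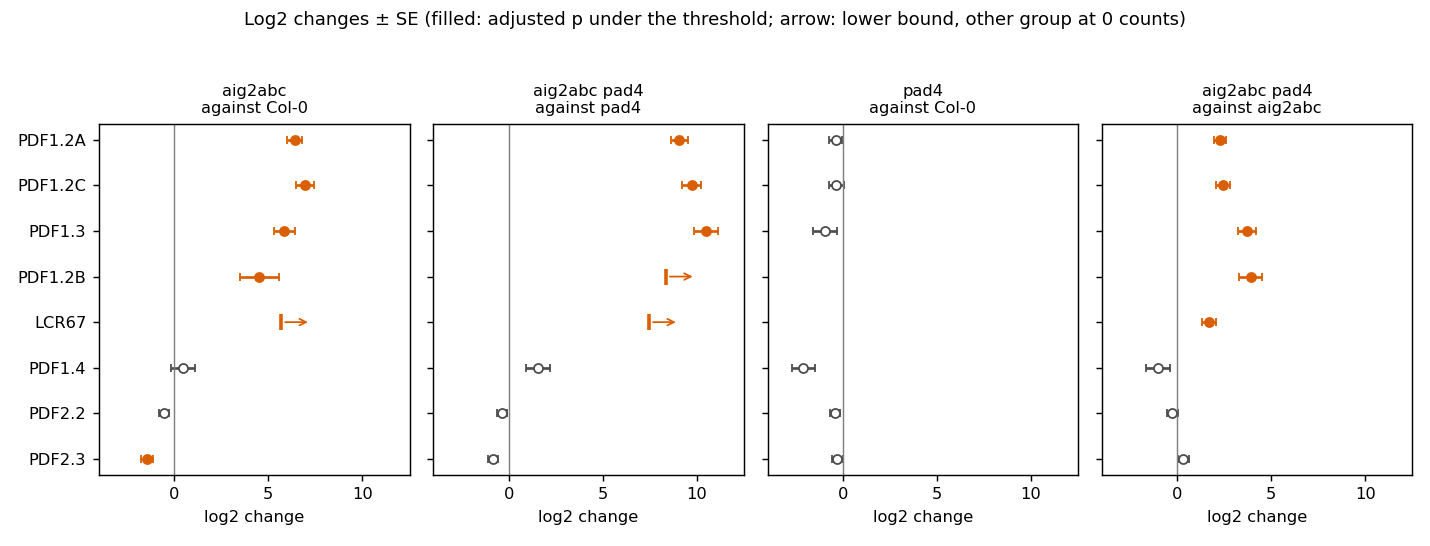
Log2 changes with their standard errors for the 8 tested defensin genes in 4 comparisons. Filled points passed the adjusted threshold, and arrows start at the lower bound of a gene that had 0 counts in the second group. PDF1.2A moved by 6.40 in aig2abc against Col-0, by 9.06 in aig2abc pad4 against pad4 and by -0.38 in pad4 against Col-0.

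The pad4 mutation by itself left the defensin genes without a call. In pad4 against Col-0, PDF1.2A, PDF1.2C, PDF2.2 and PDF2.3 had no call by edgeR, DESeq2 or limma-voom. Of all tested genes, edgeR called 0.00663% higher and 0.683% lower. PDF1.3, PDF1.2B, LCR67 and PDF1.4 had no call either. PDF1.4 alone of the tested defensin genes had an unadjusted p under 0.05, and its edgeR adjusted p was 0.22. The log2 change of PDF1.2A was -0.38 ± 0.35 and that of PDF1.3 was -0.93 ± 0.64, with edgeR adjusted p-values of 0.905 and 0.887. LCR67 had no counts in either group, and PDF1.2B had 0 in pad4 against 2 in Col-0.

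Between the AIG2 mutants, aig2abc pad4 held more of these transcripts than aig2abc. PDF1.2A, PDF1.2C, PDF1.3, PDF1.2B and LCR67 rose, where 12.8% of tested genes were called higher, 11.5% lower and 24.3% in all. Neither PDF2.2 nor PDF2.3 was called lower by edgeR, DESeq2 or limma-voom, or had an unadjusted p under 0.05 in that direction. The rise was 2.28 ± 0.33 on the log2 scale for PDF1.2A, or 4.87-fold (edgeR adjusted p = 0.00117), and 2.43 ± 0.37 for PDF1.2C (edgeR adjusted p = 0.00128). It was 3.70 ± 0.47 for PDF1.3, or 13-fold (edgeR adjusted p = 0.00078), 3.90 ± 0.59 for PDF1.2B (edgeR adjusted p = 0.0016, and a change of 4.95 without aig2abc replicate 1) and 1.68 ± 0.37 for LCR67 (edgeR adjusted p = 0.00815). With the axis score as a covariate, PDF1.2A rose by 1.66, PDF1.2C by 1.3 and PDF1.3 by 1.62 on the log2 scale, whereas PDF1.2B and LCR67 lost their calls, at 2.02 and 1.5 with edgeR adjusted p-values of 0.0564 and 0.103. Against Col-0, aig2abc pad4 had the same genes called higher, where 1.42% of tested genes were higher, 0.325% lower and 1.74% called in all. EdgeR and limma-voom called neither PDF2.2 nor PDF2.3 lower, whereas both had an unadjusted p under 0.05 and were also called by DESeq2. PDF1.2A was 412-fold higher than in Col-0 (log2 8.69 ± 0.45, edgeR adjusted p = 5.22e-09), PDF1.2B 449-fold with an exact 95% interval of 124 to 3711 (fitted log2 change 8.41, or 7.78 without Col-0 replicate 3), and LCR67 at least 161-fold.

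The effect of the AIG2 mutations was set against itself in plants without and with the pad4 mutation. The change in aig2abc pad4 against pad4 exceeded that in aig2abc against Col-0 for PDF1.2A, PDF1.2C and PDF1.3. Among all tested genes 8.53% were called in this direction, 6.23% in the other and 14.8% in all, and their median difference was 0.13 on the log2 scale. The difference was 2.66 ± 0.48 for PDF1.2A (edgeR adjusted p = 0.011), 2.78 ± 0.54 for PDF1.2C (edgeR adjusted p = 0.0132) and 4.64 ± 0.78 for PDF1.3 (edgeR adjusted p = 0.00909). For PDF1.2B and LCR67 the pad4 libraries had 0 counts, so a fitted difference has no usable size. The test for PDF1.2B gave an adjusted p of 0.078 with edgeR, 0.00761 with DESeq2, 0.0203 with the replicate block, 0.0288 without a filter on low counts and 0.0121 without aig2abc pad4 replicate 3. It rests on 0 counts in pad4 and 2 in Col-0, so nothing is read from these p-values. With the axis score as a covariate the difference was 1.90 for PDF1.2A (edgeR adjusted p = 0.0431), and the calls ended for PDF1.2C, at 1.41 (edgeR adjusted p = 0.195), and PDF1.3, at 2.17 (edgeR adjusted p = 0.0825).

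Summed over PDF1.2A, PDF1.2C, PDF1.2B and PDF1.3, which removes the split of reads among the copies, levels were 15.4 ± 6.23 CPM in Col-0, 1430 ± 272 in aig2abc, 11.3 ± 3.32 in pad4 and 8007 ± 2837 in aig2abc pad4 (SD, n = 3 each). The sum was 93.3-fold higher in aig2abc than in Col-0, with an edgeR adjusted p of 1.87e-07. It was 706-fold higher in aig2abc pad4 than in pad4, with an edgeR adjusted p of 2.72e-09. In pad4 it was 1.35-fold below Col-0, with an edgeR adjusted p of 0.894. In aig2abc pad4 it was 5.59-fold above aig2abc, with an edgeR adjusted p of 0.00119. The difference of the AIG2 effects was 2.92 ± 0.50 on the log2 scale (edgeR adjusted p = 0.00896), and 1.83 with the axis score as a covariate (edgeR adjusted p = 0.0538).

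The proportions of the copies are given per library, since no test of them passed. For each count of PDF1.2A there were 0.431 to 0.596 counts of PDF1.2C in the Col-0 libraries, 0.739 to 0.824 in aig2abc, 0.449 to 0.658 in pad4. In aig2abc pad4 there were 0.975, 0.914 and 0.647. The aig2abc ratios lay above those of Col-0 and pad4, and aig2abc pad4 replicate 3 fell within the pad4 range. PDF1.3 made up 7.50 to 13.1% of the summed counts in Col-0, 4.99 to 6.59% in aig2abc, 3.08 to 7.75% in pad4, and 16.6, 14.0 and 7.59% in aig2abc pad4. All aig2abc pad4 shares of PDF1.3 lay above all aig2abc shares. An exact two-sided permutation test of 3 libraries against 3 cannot give a p below 0.1, which is what it gave for the PDF1.2C ratio in aig2abc against Col-0 and for the PDF1.3 share in aig2abc pad4 against aig2abc (0.177 after adjustment over 55 such comparisons).

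**Figure D3:**
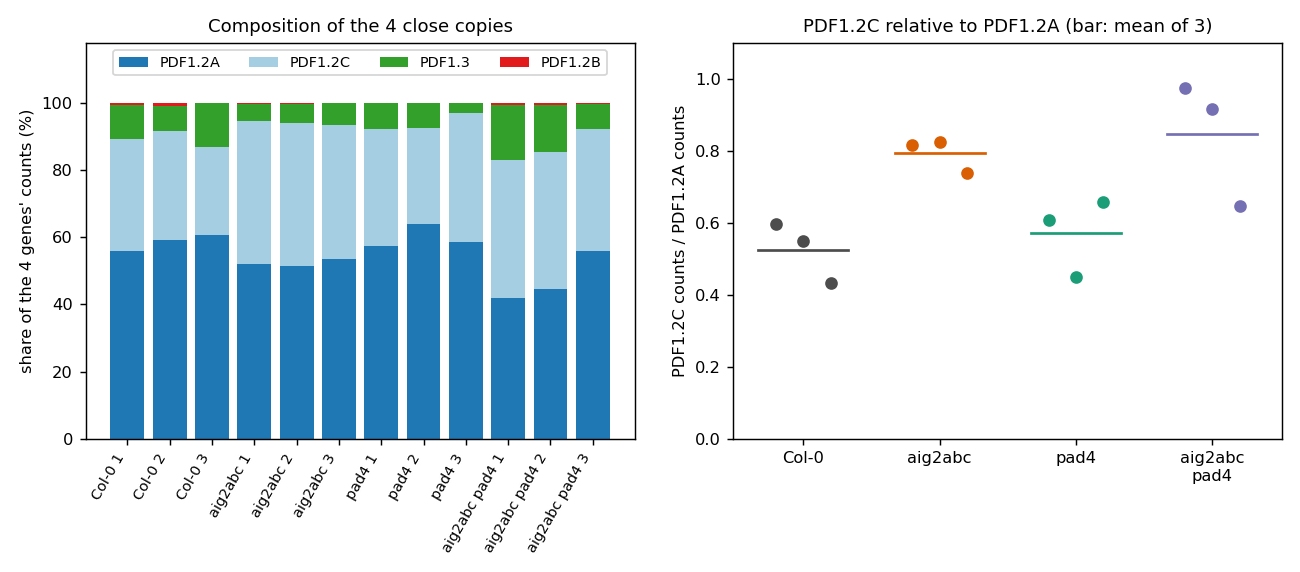
Left, the share of the counts of 4 close PDF1 copies that fell to each, per library in percent. Right, PDF1.2C counts per PDF1.2A count, with a bar at the mean of 3 libraries, which was 0.525 in Col-0, 0.793 in aig2abc, 0.572 in pad4 and 0.845 in aig2abc pad4.

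PDF1.4, whose coding sequence is the least like PDF1.2A within the PDF1 group, did not share this pattern. It had 16, 14 and 8 counts in Col-0, 5, 1 and 8 in aig2abc, 6, 1 and 3 in pad4. Counts in aig2abc pad4 were 8, 7 and 9. Its mean levels were 1.65 ± 0.79 CPM in Col-0, 2.14 ± 0.426 in aig2abc, 0.346 ± 0.229 in pad4 and 1.1 ± 0.357 in aig2abc pad4 (SD, n = 3 each), and the pad4 libraries lay below all libraries of the other groups. The log2 change was 0.46 ± 0.62 in aig2abc against Col-0 (edgeR adjusted p = 0.58), 1.55 ± 0.64 in aig2abc pad4 against pad4 (edgeR adjusted p = 0.26) and -2.11 ± 0.61 in pad4 against Col-0 (edgeR adjusted p = 0.22).

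PDF2.2 and PDF2.3 were the abundant defensin transcripts of Col-0, and neither was called higher in any comparison. PDF2.2 was at 671, 832 and 615 CPM in Col-0, 494, 479 and 475 CPM in aig2abc, 498, 649 and 410.3 CPM in pad4, and 333, 324 and 556.5 CPM in aig2abc pad4. Every Col-0 library lay above every aig2abc and aig2abc pad4 library, and pad4 overlapped with all 3 other groups. PDF2.3 was at 229, 189 and 114 CPM in Col-0, 61.9, 63.7 and 68.3 CPM in aig2abc, 145, 193 and 96.9 CPM in pad4, and 85.4, 78.8 and 79.6 CPM in aig2abc pad4. For PDF2.3, both groups with mutated AIG2 genes lay below both groups without the mutations, with aig2abc the lowest and below every aig2abc pad4 library. In aig2abc pad4 against aig2abc its log2 change was 0.33 ± 0.29 (edgeR adjusted p = 0.425). PDF2.3 fell by 1.45 ± 0.30 on the log2 scale in aig2abc against Col-0, or 2.74-fold (edgeR adjusted p = 0.00161), and the value was -1.01 with the axis score as a covariate (edgeR adjusted p = 0.062). In aig2abc pad4 against pad4 its change was -0.83 ± 0.29 (edgeR adjusted p = 0.136, and 0.00737 with the axis score). Against Col-0 it was -1.13 ± 0.29 (edgeR adjusted p = 0.0567), which passed with DESeq2 (adjusted p = 0.00948), the axis score (0.00232), the replicate block (0.0268), no filter (0.0222), and without Col-0 replicate 3 (0.0211), pad4 replicate 2 (0.0452) or pad4 replicate 3 (0.0347).

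PDF2.2 changed by -0.55 ± 0.27 on the log2 scale in aig2abc against Col-0 (edgeR adjusted p = 0.114) and by -0.36 ± 0.27 in aig2abc pad4 against pad4 (edgeR adjusted p = 0.639). The first passed with DESeq2 (adjusted p = 0.0376), in a fit of only the groups compared (0.0296) and, at -0.99, with the axis score (0.0401). In aig2abc pad4 against Col-0 its change was -0.80 ± 0.27 (edgeR adjusted p = 0.189), which passed with DESeq2 (adjusted p = 0.0378), the axis score (0.00524) and, at -1.1, without aig2abc pad4 replicate 3 (0.0247). Relative to PDF2.2, PDF2.3 gave 0.342, 0.227 and 0.185 counts per count in Col-0, 0.125, 0.133 and 0.144 in aig2abc, 0.291, 0.297 and 0.236 in pad4. The aig2abc pad4 libraries gave 0.256, 0.243 and 0.143. Ratios of aig2abc lay below those of Col-0 and pad4, and aig2abc pad4 replicate 3 was close to aig2abc (exact two-sided permutation p = 0.1 for aig2abc against Col-0, the smallest possible). PDF2.1, which lies beside PDF2.3 on chromosome 2, was hardly detected, with 9, 1 and 8 counts in Col-0, 1, 0 and 0 in aig2abc, 4, 3 and 0 in pad4. Those of aig2abc pad4 were 0, 1 and 3. It alone of the 9 did not pass the filter on low counts, and it was not tested.

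**Figure D4:**
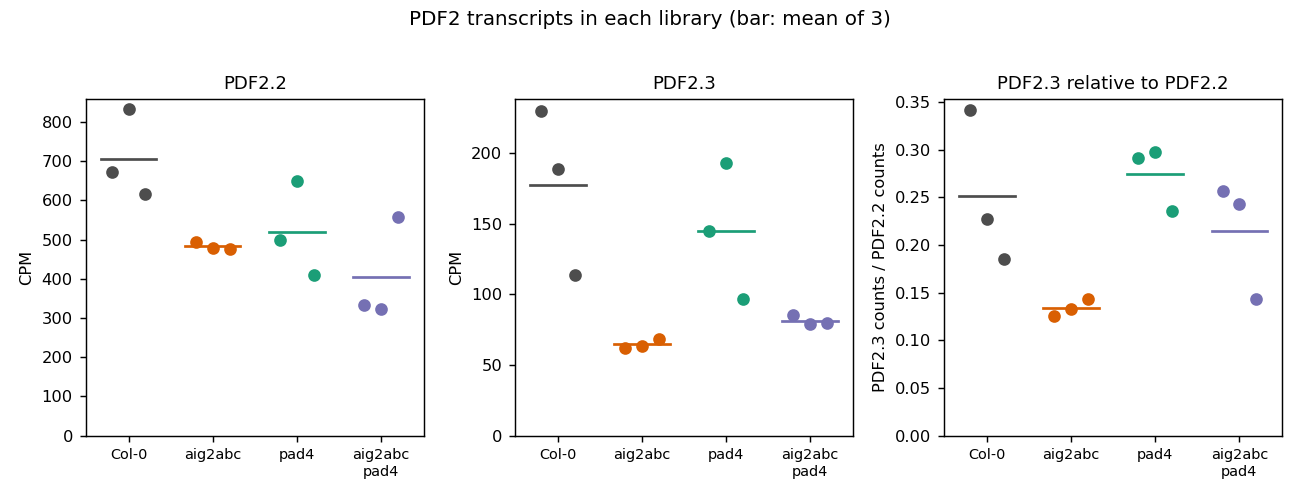
CPM of PDF2.2 and PDF2.3 and the ratio of their counts in each library, with a bar at the mean of 3. PDF2.3 averaged 177 CPM in Col-0, 64.6 in aig2abc, 145 in pad4 and 81.3 in aig2abc pad4.

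The PDF1 genes together held 1.24 to 2.17% of the counts of the 9 genes in Col-0 and 1.54 to 1.96% in pad4, against 68.0 to 75.8% in aig2abc and 96.1, 95.6 and 88.5% in aig2abc pad4. The 9 genes took 0.0760 to 0.0943% of all counts of a Col-0 library, 0.150 to 0.227% in aig2abc and 0.0551 to 0.0697% in pad4. In aig2abc pad4 they took 1.35, 1.1 and 0.524%. A 3′ assay counts transcript ends, so levels of different genes were set side by side without scaling by length. Across the 12 libraries, log2 CPM of PDF1.2A had a Pearson r of 0.999 with PDF1.2C, 0.989 with PDF1.3, 0.986 with LCR67 and 0.935 with PDF1.2B, of 0.42 with PDF1.4, and of -0.61 and -0.75 with PDF2.2 and PDF2.3. These libraries fall into groups of very different level, so the values describe that separation.

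A list of 28 regulators linked to jasmonate, ethylene or salicylic acid signalling, activators and repressors alike, held 25 that could be tested. Of these, 12 were higher and 2 lower in aig2abc against Col-0, where 18% and 19.5% of all tested genes were called. Such counts do not give the direction of any branch. How many of the list passed the filter only through the AIG2 mutants was not counted. In aig2abc pad4 against pad4 8 were higher (3.34% of all), in pad4 against Col-0 2 were lower (0.683%), and in aig2abc pad4 against aig2abc 2 were higher and 5 lower (12.8% and 11.5%). Against Col-0, aig2abc pad4 had 5 higher (1.42%), and the interaction was called higher for 2 (8.53%). ORA59, the ERF activator of PDF1.2A, was at 7.66, 8.77 and 4.29 CPM in Col-0, 97.5, 122 and 108 in aig2abc, 4.2, 6.09 and 3.86 in pad4. In aig2abc pad4 it was at 95.2, 107 and 126. The AIG2 mutants overlapped for ORA59, unlike for PDF1.2A, and both lay far above Col-0 and pad4. ORA59 rose by 3.98 ± 0.31 on the log2 scale in aig2abc against Col-0 (edgeR adjusted p = 5.3e-07) and by 4.53 ± 0.31 in aig2abc pad4 against pad4 (edgeR adjusted p = 5.16e-08). ERF1, the other activator named above, had 10, 10, 4 and 16 counts in Col-0, aig2abc, pad4 and aig2abc pad4 in all and was too scarce to test. ERF2, an ERF that activates GCC box genes, rose by 2.94 ± 0.26 and 2.4 ± 0.26 in these comparisons, and WRKY33, a factor in resistance to necrotrophic fungi, by 2.18 ± 0.36 and 2.13 ± 0.33 (all edgeR adjusted p under 0.05). In aig2abc COI1, the jasmonate receptor, fell by 1.75 ± 0.48, and MED25, a Mediator subunit, fell by 2.65 ± 0.85. MED25 had 2 counts in aig2abc in all, the group of the smallest libraries, against 53 in Col-0, so its changes rest on few counts. COI1 and MED25 had higher levels in aig2abc pad4 than in aig2abc. They were the regulators called in the interaction, at 2.06 ± 0.62 (edgeR adjusted p = 0.0381) and 2.96 ± 0.97 (edgeR adjusted p = 0.0488). JAZ1, a repressor of jasmonate signalling, rose by 2.08 ± 0.37 in aig2abc against Col-0, and ERF5 by 1.38 ± 0.29 in aig2abc pad4 against Col-0. WRKY50 and WRKY51, known from the crosstalk of salicylic acid with jasmonate, were the 2 that fell in pad4 against Col-0, with log2 changes of -2.83 ± 0.43 and -3.35 ± 0.64. WRKY50 rose by 2.62 ± 0.43 in aig2abc pad4 against pad4 and fell by 1.39 ± 0.39 against aig2abc. EIN3, a transcription factor of ethylene signalling, and MYC2, the regulator of the other jasmonate branch, rose by 1.44 ± 0.30 and 1.36 ± 0.31 in aig2abc against Col-0. In aig2abc pad4 they fell against aig2abc, with log2 changes of -1.07 ± 0.29 and -1.11 ± 0.31, and neither was called against Col-0. ERF2 also fell in aig2abc pad4 against aig2abc, where PDF1.2A rose, with a log2 change of -0.80 ± 0.24 (edgeR adjusted p = 0.0267). Among the 28 regulators only ORA59 and WRKY33 held GCCGCC in their own 500 bases before the start, and among 7 other outputs only PR4. The share of all promoters with it was 4.12%.

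**Figure D5:**
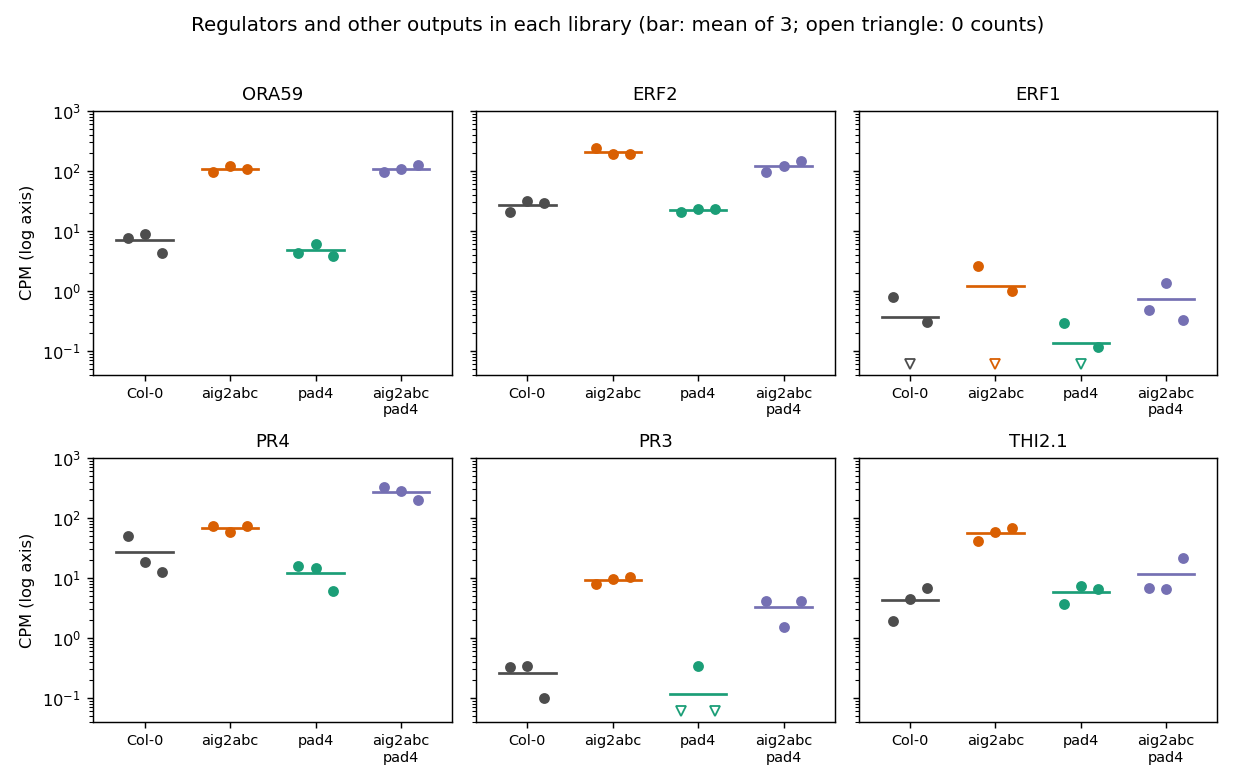
CPM on a log axis of the regulators ORA59, ERF2 and ERF1 and of the outputs PR4, PR3 and THI2.1 in each library, with a bar at the mean of 3 and an open triangle for 0 counts. ORA59 averaged 109 CPM in aig2abc and 109 CPM in aig2abc pad4, whereas PR4 averaged 68.3 and 273 CPM.

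Of 7 other outputs of jasmonate, ethylene and salicylic acid signalling, 5 rose in aig2abc against Col-0 and 4 in aig2abc pad4 against pad4, where 18% and 3.34% of all tested genes rose. PR3 is among them and passed the filter only through the AIG2 mutants, so nothing is read from counts of rises that include it. In pad4 against Col-0 2 fell (0.683% of all), in aig2abc pad4 against aig2abc 1 rose and 4 fell (12.8% and 11.5%), against Col-0 2 rose (1.42%), and the interaction was called higher for 3 and lower for 3 (8.53% and 6.23%). PR4, a chitin-binding protein of the jasmonate and ethylene branch, was at 49.4, 18.6 and 12.7 CPM in Col-0, 73.4, 57.9 and 73.5 in aig2abc, 15.9, 14.6 and 6.08 in pad4. It reached 334, 287 and 198 CPM in aig2abc pad4. Its group order was that of PDF1.2A, with Col-0 and pad4 overlapping and aig2abc pad4 the highest. PR4 rose by 1.36 ± 0.43 in aig2abc against Col-0, by 4.48 ± 0.48 in aig2abc pad4 against pad4 and by 1.98 ± 0.44 in aig2abc pad4 against aig2abc on the log2 scale (edgeR adjusted p = 0.0212, 7.9e-06 and 0.00591). PR3, a basic chitinase, had 6 counts in Col-0 and 3 in pad4, at no more than 0.337 and 0.345 CPM. These libraries lay below the filter level of 1.37 CPM, and the filter favours a rise of PR3. Its log2 change was 5.15 ± 0.69 in aig2abc against Col-0 and 4.69 ± 0.75 in aig2abc pad4 against pad4. In aig2abc pad4 against aig2abc PR3 fell by 1.49 ± 0.53 (edgeR adjusted p = 0.0487). THI2.1, a thionin induced by jasmonate, averaged 4.32, 55.7, 5.85 and 11.7 CPM in Col-0, aig2abc, pad4 and aig2abc pad4. It fell by 2.26 ± 0.47 in aig2abc pad4 against aig2abc (edgeR adjusted p = 0.00495). The vegetative storage protein genes VSP1 and VSP2, outputs of the MYC2 branch, also fell there, with log2 changes of -2.15 ± 0.46 and -2.04 ± 0.56. The interaction was lower for THI2.1, VSP1 and VSP2, at -2.68 ± 0.67, -2.73 ± 0.63 and -3.01 ± 0.76, and higher for PR4, at 3.12 ± 0.61.

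PR1 and PR5, the salicylic acid markers, followed another order of groups. PR1 was at 98.1, 142 and 224 CPM in Col-0, 358, 253 and 355 CPM in aig2abc, 5.54, 5.52 and 3.51 CPM in pad4, and 259, 263 and 136 CPM in aig2abc pad4. Its pad4 libraries lay far below all others, and aig2abc pad4 overlapped with both Col-0 and aig2abc. PR1 fell by 4.99 ± 0.39 on the log2 scale in pad4 against Col-0 (edgeR adjusted p = 2.29e-06), rose by 1.06 ± 0.33 in aig2abc against Col-0 (edgeR adjusted p = 0.0175) and rose by 5.49 ± 0.40 in aig2abc pad4 against pad4 (edgeR adjusted p = 7.76e-08). PR5 fell by 3.26 ± 0.39 in pad4 against Col-0 and rose by 3.17 ± 0.39 in aig2abc pad4 against pad4. The interaction was 4.43 ± 0.49 for PR1 (edgeR adjusted p = 0.000408) and 2.69 ± 0.52 for PR5 (edgeR adjusted p = 0.0127).

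Other members of the defensin family added almost nothing. Of PDF1.5, PDF2.4, PDF2.5, PDF2.6, PDF3.1 and PDF3.2, only PDF1.5 had counts, 1 in Col-0 and 1 in aig2abc pad4, and 0 of 6 could be tested. Of the 11 nearest protein-coding genes other than the defensin genes named here, 6 could be tested. The lowest edgeR adjusted p of the tested neighbours in any of the 6 comparisons was 0.117. In aig2abc pad4 against pad4 their log2 changes ran from -0.24 to 0.27. The genes whose log2 CPM followed PDF1.2A most closely over the 12 libraries, among 15074 compared, were AT3G23550, a MATE efflux protein (r = 0.992), AT2G43590, a chitinase family member (r = 0.988), UGT71C3, a glucosyltransferase (r = 0.986), AT3G16530, a legume lectin (r = 0.986), and Prx37, a peroxidase (r = 0.981). AT2G43590, which fell in pad4 against Col-0 (log2 -1.49, edgeR adjusted p = 0.0449), was at 9.98 to 17.9 CPM in Col-0, 181 to 333 in aig2abc, 3.63 to 6.20 in pad4 and 726 to 1189 in aig2abc pad4. PDF2.2 was followed most closely by AGP31, an arabinogalactan protein (r = 0.935), AT4G34215 (r = 0.924), AT1G62500 (r = 0.893), TMM, a receptor-like protein of stomatal patterning (r = 0.893), and AT4G19200 (r = 0.888), and their log2 changes in aig2abc against Col-0 ran from -0.80 to -0.21 (lowest edgeR adjusted p 0.0984).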

How the data were processed

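RNA of whole shoots was profiled by 3′ RNA-seq in 12 libraries. The authors deposited raw counts per gene, with no normalization. STAR, edgeR and TAIR10 are named in the submitters' processing notes. Settings, annotation and strandedness are not given in sources used here. The third pad4 column has a number that no pad4 title has, so the library is unnumbered within pad4 and is referred to as pad4 replicate 3.

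The 15082 genes passing filterByExpr by group entered 1 fit in edgeR 4.0.16 (R 4.3.3). They were normalized by TMM, and group means were compared by the two-sided quasi-likelihood F-test with robust dispersions. The SE given with an edgeR log2 change is its absolute size divided by the square root of the F statistic. Benjamini-Hochberg adjustment ran over all tested genes in each of 6 comparisons, and genes with an adjusted p under 0.05 were called whatever their fold change. Comparisons that use the same group share its libraries. Of the 9 defensin genes 8 passed the filter, 4 of them only through the AIG2 mutants. The same fit was repeated with 4 close copies summed. The chi-square per gene between replicates was 3.39 to 57.7, above sampling noise. Scripts were tested on simulated data. Sequences were read from the RefSeq assembly TAIR10.1 with Biopython, promoters over 500 bases (chosen after windows of 300 were read), and gene names from its table matched 28932 identifiers.

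The genes, lists and alternatives were chosen with earlier results of these data known. Named genes were the 9 defensin genes, the called list members with the smallest p (at most 4 for each comparison), ORA59, ERF1, PR3 and PR4, and the 5 genes with the highest r to PDF1.2A and to PDF2.2, on log2 CPM with a prior count of 2. Alternative fits used DESeq2 1.42.0, voom from limma 3.58.1, RLE size factors, other filters, only the groups compared, a replicate block, the axis score as a covariate, thinning to the smallest library, and leaving out each library. The axis was the first principal component of the within-group residuals of the 9 libraries outside aig2abc.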

Additional observations from a re-analysis of the deposited data

Results flagged for a closer look

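The effect of the AIG2 mutations differed between plants with and without the pad4 mutation, by the interaction term of the edgeR fit, for PDF1.2A (2.66 on the log2 scale), PDF1.2C (2.78), PDF1.3 (4.64) and the sum of the 4 close copies (2.92). In each case the change was larger in aig2abc pad4 against pad4 than in aig2abc against Col-0. For PDF1.2A and PDF1.2C all 3 libraries of both AIG2 mutants lay above all libraries of their controls. PDF1.3 passed the filter only through the AIG2 mutants. The share of all tested genes with such a separation was not counted, and the separation does not bear on the difference between the effects. The aig2abc libraries were the smallest and stood apart on the replicate axis. Values with that axis in the fit are given beside results of the defensin genes only, and none are given for the regulators and other outputs. Of all 15082 tested genes, the fit with the axis called 577 higher and 800 lower in aig2abc against Col-0, in place of 2709 and 2947.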

How the results depend on the processing

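All rises of PDF1.2A and PDF1.2C kept their direction under every alternative run, and each kept its call in the 4 comparisons outside the interaction and pad4 against Col-0. The same held for PDF1.3, but the filter favours its rise, so nothing is read from it. Of the 958 recomputed log2 changes of single genes, 928 kept their direction and their side of the threshold. The runs share libraries and include genes that passed the filter only through the AIG2 mutants, so this tally is description only. The number of defensin genes called was 3 in place of 5 in aig2abc pad4 against pad4, aig2abc and Col-0 after thinning, where 5 genes were tested. Of all 6304 genes tested after thinning, 166, 1111 and 91 were called higher and 29, 1040 and 19 lower in these comparisons. With the axis score as a covariate the number was 3 in place of 5 in aig2abc pad4 against aig2abc and 1 in place of 3 for the interaction. Of all 15082 tested genes, that fit called 197 higher and 128 lower in the former, in place of 1924 and 1737. For the interaction it called 72 higher and 14 lower, in place of 1287 and 940. Most of these defensin counts include genes that passed the filter only through the AIG2 mutants, so nothing is read from them. The interaction of the summed copies was 1.83 with the axis score. Signs of changes that were not called turned for PDF1.3 in pad4 against Col-0 after thinning (1.90), for PDF2.2 (0.0987) and PDF2.3 (-0.0396) in aig2abc pad4 against aig2abc with the axis score, and for PDF2.2 in the interaction with the replicate block (-0.0163) and on leaving out single libraries (-0.0997 without aig2abc pad4 replicate 3, up to 0.408). The cause was not tested.

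Correlations between the deviations of same-numbered libraries ran from -0.273 to 0.55. They were 0.515 to 0.55 among the libraries numbered 1 of Col-0, pad4 and aig2abc pad4, whereas in no comparison with 3 pairs did every pair exceed 0.1, and pad4 has only 2 numbered libraries, so the numbers were not taken to pair the samples. The replicate block, fitted on the 11 numbered libraries without pad4 replicate 3, gave an interaction of 2.72 for the summed copies. It called 6 defensin genes in aig2abc against Col-0, 6 in aig2abc pad4 against Col-0 and 4 in the interaction. Of all 15299 genes in that fit, 2926, 291 and 1482 were called higher and 3112, 108 and 1187 lower. The defensin counts include genes that passed the filter only through the AIG2 mutants, so nothing is read from them. Leaving out single libraries gave 2.69 to 3.23 for the interaction of the summed copies. It gave 5 to 6 called defensin genes in aig2abc against Col-0, where 1657 to 2953 of all tested genes were higher and 1980 to 3257 lower. Depth limited the scarce genes PDF1.2B, LCR67, PDF1.4 and PDF2.1 most, above all in the aig2abc libraries. A count of called genes with the copies summed, and a fit of only the groups compared for the interaction, have no value.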
